A study of Mus musculus with 2 samples.

Results

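Genes that make reactive oxygen or nitric oxide in the gut epithelium, and genes that remove oxidants, were followed in mRNA from small intestinal epithelial cells of mice with intact miR-215 (miR-215+/+, called wild-type) and of mice lacking it (miR-215-/-, called knockout). The 46 genes were chosen by symbol, as genes of this chemistry, from 23284 genes listed in each library, and all 46 were listed. There was 1 library per genotype, so each difference below is between 2 libraries, has no replicate check and carries no p-value. Whether a library held cells of 1 mouse or several, and the mice's strain, sex, age and form of deletion, is not given by the sources used here. Below, wild-type and knockout stand for these 2 libraries. The series title asks about inflammation of the Th17 type and the chemokine CXCL12 in the absence of miR-215.

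An epithelium that faces microbes makes oxidants on purpose. The dual oxidases and NOX1 take electrons from NADPH and release superoxide or hydrogen peroxide at the apical surface, and each needs partner proteins to reach the membrane or to be switched on. Superoxide dismutases turn superoxide into hydrogen peroxide, which catalase splits into water and oxygen and which glutathione peroxidases and peroxiredoxins reduce with electrons from glutathione or thioredoxin. The transcription factor NRF2, encoded by Nfe2l2 and held in check by KEAP1, switches on many genes of this defence through a short DNA motif, the antioxidant response element. Several of the enzymes, among them most glutathione peroxidases and the thioredoxin reductases, carry selenium as selenocysteine.

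The microRNA that the knockout lacks is shown first, with the related miR-192, because a microRNA acts through pairing of its seed with 3' UTRs. Both are mature sequences from RefSeq on GRCm38.p6, written 5′ to 3′ with the seed, bases 2 to 8, in capitals, and they share that seed.

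miR-215-5p, chr1:185313610-185313630, plus strand: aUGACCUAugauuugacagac

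miR-192-5p, chr19:6264857-6264877, plus strand: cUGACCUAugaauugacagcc

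The heptamer that pairs with this seed, TAGGTCA, was searched in the longest annotated 3' UTR of each gene (GENCODE M21). It was present in 2 of the 46 genes (4.35%), against 753 of 10995 genes kept for comparison (6.85%). The 46 include 4 genes that were not kept for comparison. The sites, in capitals with flanking bases, lay in the peroxiredoxin gene Prdx6 and the quinone reductase gene Nqo1.

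Prdx6, site at chr1:161240397-161240403, minus strand: gtgggtccTAGGTCAtcctcctc

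Nqo1, site at chr8:107388593-107388599, minus strand: tactcttcTAGGTCAtttatgca

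The values of these 2 genes went in opposite directions. Prdx6 was at 86.2 FPKM (fragments per kilobase of transcript, scaled to library depth) in wild-type and 107 in knockout. Nqo1 was at 25 FPKM in wild-type and 16.3 in knockout. The gene Mir215 itself (chromosome 1, 185313581 to 185313692) was listed at 137 and 0 FPKM. It is 112 nt long, and the lowest value above 0 among the 87 genes within 10 nt of that length was 122 FPKM in the wild-type library, so its value rested on very few fragments and does not check the genotype labels.

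A gene entered the comparison when 1 library or both had 1 FPKM or more, which kept 11504. Of the 46 genes, 42 were kept, and Duox1, Duoxa1, Nox1 and Sod3 were below that level in both libraries. Differences are given as FPKM folds with an exact 95% counting interval (Clopper-Pearson, from estimated fragment numbers, counting error only), and as log2 ratios of FPKM + 1, knockout over wild-type, which understate the difference of low genes. In such bulk RNA, fewer cells of a type and less RNA per cell cannot be told apart. The 5 kept genes of the NADPH oxidases had log2 ratios above 0, and of the other 37 kept genes 28 were below 0. Of the 42 genes kept, 1, Duox2, was at least 2-fold higher (1.34% of all genes kept) and 0 were at least 2-fold lower (2.04% of all). At 1.5-fold, 3 were higher (4.83% of all) and 7 were lower (7.26% of all). Log2 ratios below 0 were found for 28 of 42, against 56% of all genes kept, and the median was -0.22, against -0.05 for all.

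Scaling moved the split between higher and lower genes. With the knockout values multiplied to the wild-type sum of FPKM, the median of all genes kept moved from -0.05 to 0.07. With these equal sums, 3 genes were 1.5-fold higher (7.8% of all) and 3 lower (4.9% of all). With equal upper quartiles the split was 3 higher (7.1% of all) and 4 lower (5.35% of all). Ratios below 0 were then found for 25 of 42 genes with equal sums, against 40.7% of all, and for 27 of 42 with equal upper quartiles, against 44.2% of all. The folds and intervals below keep the deposited scaling, and with equal sums each knockout value is 1.1 times higher. Cat, Blvrb and Sepp1 were 1.5-fold lower under both, and Duox2, Duoxa2 and Gpx3 were 1.5-fold higher under both.

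**Figure D1:**
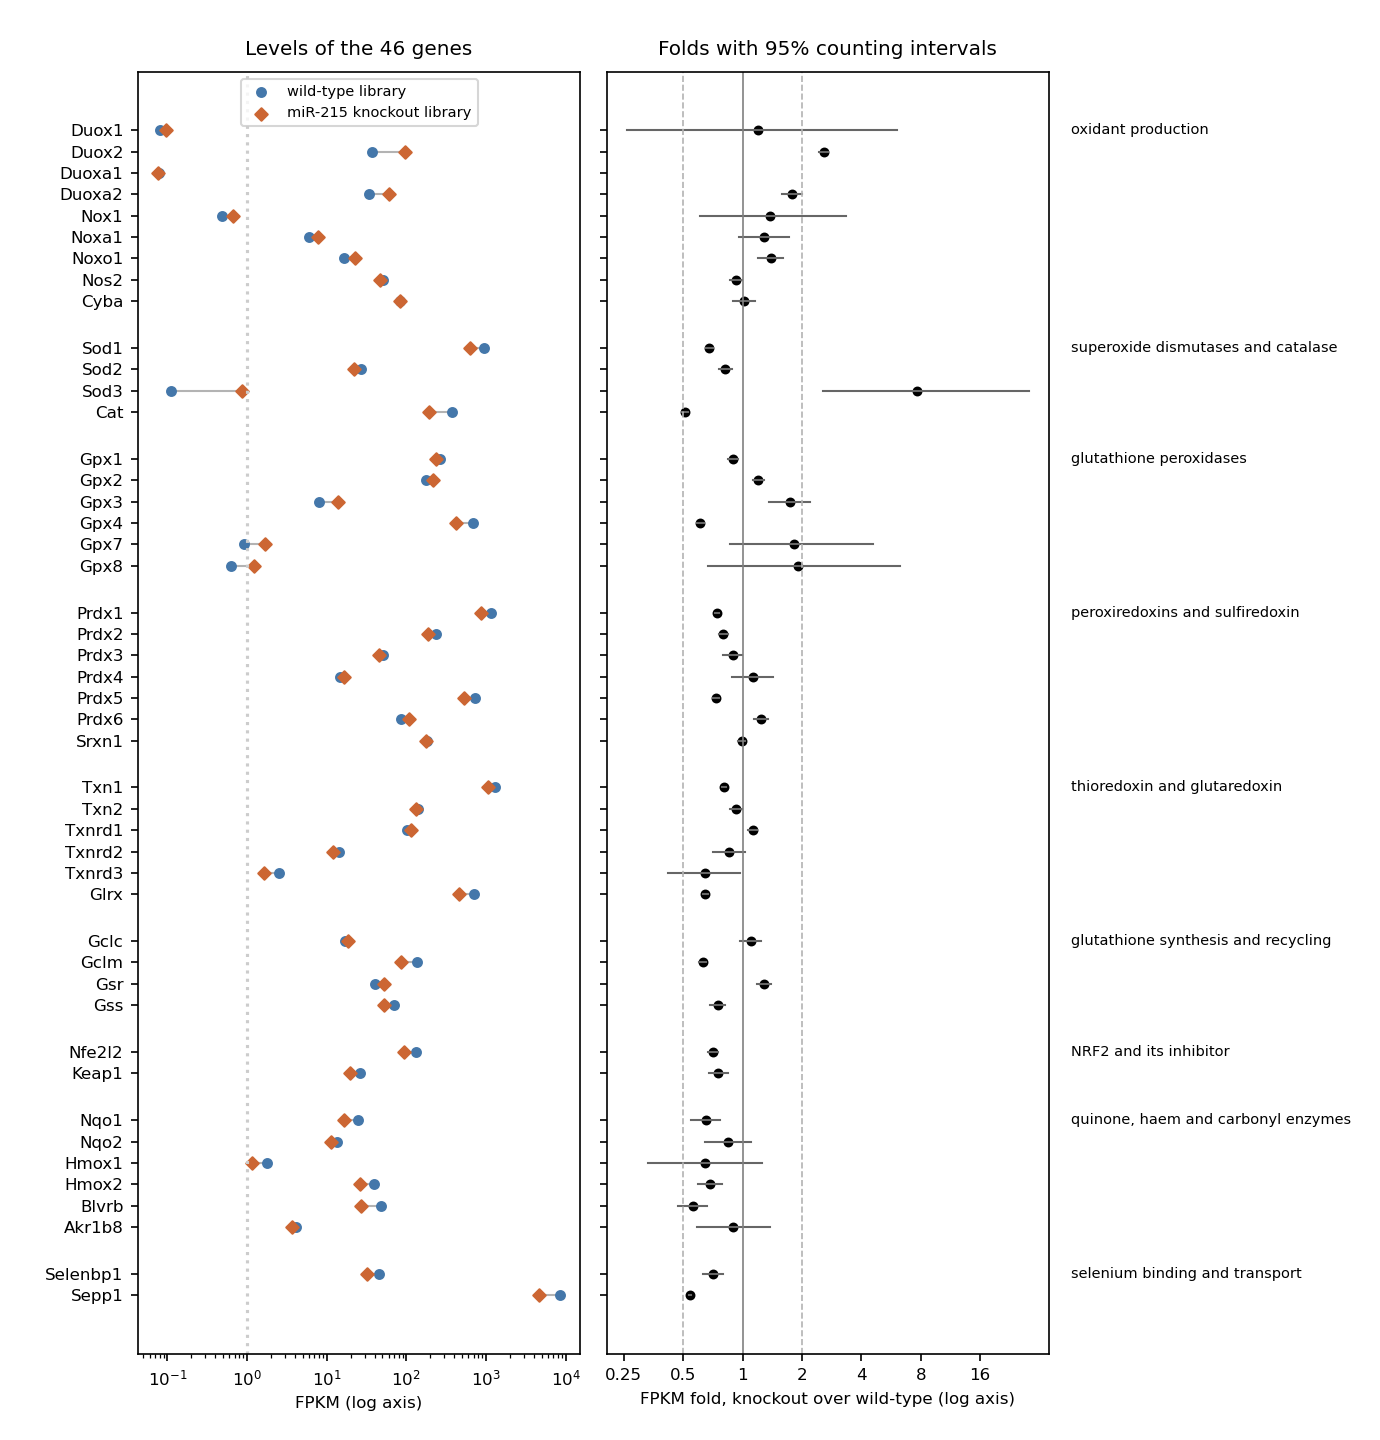
Left, FPKM of each of the 46 genes (log axis) in the wild-type library (circles) and the knockout library (diamonds), grouped by role, with a dotted line at 1 FPKM. Right, FPKM fold of knockout over wild-type (log axis) with 95% counting intervals, with dashed lines at 2-fold. Duox2 lies at 2.58 and Cat at 0.51, and Duoxa1, with 1 estimated fragment in each library, has no fold drawn.

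Oxidant production is described first. DUOX2, the dual oxidase of the gut epithelium, and DUOXA2, which carries it out of the endoplasmic reticulum, are made from neighbouring genes that face away from each other on chromosome 2. Duox2 (122279247 to 122298449) was at 37.5 FPKM in wild-type and 96.7 in knockout, 2.58-fold higher (2.45 to 2.72). Duoxa2 (122298900 to 122302885) was at 34.1 and 60.5 FPKM, 1.77-fold higher (1.59 to 1.99). Both genes of the pair were thus higher in the knockout library, and the level of Duox2 relative to Duoxa2, per length, was 1.1 in wild-type and 1.6 in knockout. The paralogous pair, Duox1 and Duoxa1, best known from thyroid and airway, was almost silent: Duox1 rested on about 4 and 5 fragments and Duoxa1 on 1 and 1. Duoxa1 and Duoxa2 overlap at their ends on opposite strands, and the use of strand in counting is not stated in the sources.

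The promoter windows of Duox2 and Duoxa2 are shown because the genes differed in the same direction and their RefSeq starts are only 673 bp apart. Each window runs from 250 bases before to 50 after the RefSeq start on GRCm38.p6 and is written along its own gene. The RefSeq start of Duox2, 122298227, lies inside the GENCODE span given above, so most of its window lies within that span. Neither held the antioxidant response element core TGACNNNGC on either strand, so no letters are in capitals. That says only that these letters are not in these windows.

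Duox2, chr2:122298178-122298477, minus strand: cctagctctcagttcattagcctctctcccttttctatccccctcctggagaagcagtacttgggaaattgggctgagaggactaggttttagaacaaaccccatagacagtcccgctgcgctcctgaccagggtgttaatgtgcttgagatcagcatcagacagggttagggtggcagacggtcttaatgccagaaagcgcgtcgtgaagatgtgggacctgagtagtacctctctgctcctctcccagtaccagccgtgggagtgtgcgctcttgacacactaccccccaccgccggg

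Duoxa2, chr2:122298650-122298949, plus strand: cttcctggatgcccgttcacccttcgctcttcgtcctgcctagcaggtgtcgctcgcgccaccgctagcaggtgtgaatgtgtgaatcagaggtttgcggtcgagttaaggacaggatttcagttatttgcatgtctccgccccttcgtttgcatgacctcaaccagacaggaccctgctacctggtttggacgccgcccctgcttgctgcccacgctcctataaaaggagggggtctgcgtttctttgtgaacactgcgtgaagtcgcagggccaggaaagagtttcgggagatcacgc

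The NOX1 system had its partners but little of the oxidase. Nox1 was at 0.484 FPKM in wild-type and 0.666 in knockout, about 11 and 16 fragments, with a fold interval of 0.611 to 3.34 that includes 1. Noxo1, which organises the complex, was at 16.3 and 22.6 FPKM, 1.39-fold higher (1.2 to 1.61). Noxa1, which activates it, was at 6.05 and 7.73 FPKM with an interval of 0.958 to 1.72. Per length, Noxo1 was 33.6 times the level of Nox1 in wild-type and 33.9 times in knockout. Cyba, the membrane partner that NOX1 shares with the phagocyte oxidase, was at 82.7 and 83.9 FPKM (interval of the fold 0.898 to 1.15).

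All 5 kept genes of the dual oxidases, NOX1 and their partners had log2 ratios above 0, with a median of 0.45 against -0.05 for all genes kept. Among the 3 that were not kept, the ratios were 0.02 for Duox1, 0.17 for Nox1 and -0.00 for Duoxa1, and with them the median was 0.24. Nos2, the inducible nitric oxide synthase, was at 50.7 FPKM in wild-type and 47 in knockout, with a log2 ratio of -0.11 that turned above 0 with equal sums of FPKM.

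Genes of the phagocyte oxidase were present at low levels. Cybb, its catalytic subunit, was at 1.44 and 1.72 FPKM, and its cytosolic subunit genes Ncf1 and Ncf4 were at 4.94 and 1.81 FPKM in wild-type and 6.76 and 3.33 in the knockout library. Of the 13 phagocyte and other oxidase genes, 7 were kept, 4 of them above 0 (all 7 with equal sums). Among the 7, 1, Ncf4, was 1.5-fold higher, against 4.83% of all genes kept. The most abundant, the xanthine oxidoreductase gene Xdh, was at 285 and 271 FPKM. Of 11 kept markers of tissue macrophages, dendritic cells or neutrophils 9 were above 0, among them Emr1, which was kept through the knockout library only. The 15 listed summed to 99.1 FPKM in wild-type and 112 in knockout, while the neutrophil genes S100a8, S100a9, Mpo and Elane were listed at 0 in both. The complement genes C1qa and C1qc were at 4.93 and 6.3 FPKM in wild-type and 12.3 and 12.7 in knockout, and Tyrobp, the most abundant marker, was at 30.1 and 22.1 FPKM. Their part in the oxidase values was not tested.

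DUOX2 is known as a target of IL-17 and IL-22 signalling, so other epithelial genes of that response were read beside it. Of 18, 12 were kept, 7 with ratios above 0 and 5 below, with a median of 0.04. The antimicrobial lectin gene Reg3b was at 5343 and 6939 FPKM, whereas Reg3a was at 533 and 225 FPKM and Ccl20, a chemokine gene, at 5.88 and 2.34 FPKM. The part of this signalling in the Duox2 value was not tested.

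The kept superoxide dismutases and catalase were lower. Cat, which breaks down hydrogen peroxide in peroxisomes (chromosome 2, 103453849 to 103485160), measured 379 FPKM in wild-type and 193 in knockout, 1.96-fold lower (1.89 to 2.03), and had the lowest log2 ratio of the 42 genes, -0.97. Sod1, the cytosolic dismutase (chromosome 16, 90220754 to 90226329), measured 933 and 633 FPKM, 1.47-fold lower (1.41 to 1.54). Sod2, its mitochondrial counterpart, was at 27.1 and 22.2 FPKM, 1.22-fold lower (1.13 to 1.32). Sod1 made up 97.2% of the summed dismutase FPKM in wild-type and 96.5% in knockout. Sod3, the extracellular form, went the other way at a very low level, from about 4 fragments to 30, 7.71-fold higher (2.55 to 28.2).

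Of the 6 glutathione peroxidase genes, Gpx4 and Gpx1 were below 0 and the other 4 above. Gpx4, which reduces lipid hydroperoxides in membranes (chromosome 10, 80047166 to 80056439), was the most abundant in both libraries, at 688 and 419 FPKM, 1.64-fold lower (1.57 to 1.71). Gpx1, the cytosolic enzyme found in most tissues, was at 262 and 234 FPKM, 1.12-fold lower (1.06 to 1.19). Gpx2, the gastrointestinal form (chromosome 12, 76792333 to 76795554), measured 178 and 214 FPKM, 1.21-fold higher (1.13 to 1.29). Gpx4 took 60.5% of the summed family FPKM in wild-type and 47.4% in knockout, and Gpx2 took 15.6% and 24.2%, while the sum was 1138 and 884 FPKM.

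The 3 scarce members of this family had higher values in knockout. Gpx3, a secreted form (chromosome 11, 54902453 to 54910377), measured 8.07 and 14 FPKM, 1.73-fold higher (1.36 to 2.19). Gpx7 and Gpx8, which act in the endoplasmic reticulum, were at 0.918 and 0.635 FPKM in wild-type and at 1.67 and 1.22 in the knockout library, and the fold intervals of both include 1 (0.861 to 4.61 and 0.669 to 6.26). The values of Sod3, Gpx3, Gpx7 and Gpx8 were thus higher in the library that also held more transcripts of connective tissue. All 11 kept markers of fibroblasts and smooth muscle were above 0, 6 of them at least 2-fold, against 1.34% of all genes kept. Among them, Col3a1, Col6a1, Myh11, Des and Actg2 reached 1 FPKM only in knockout, so the filter fixed their direction. The summed FPKM of the whole list, including the 2 not kept, was 16.8 and 56.4, with the most abundant, Vim, at 6.56 and 11 FPKM. The smooth muscle genes Actg2 and Des, with the largest ratios, were at 0.463 and 0.581 FPKM in wild-type and 6.87 and 5.85 in knockout. Their part in these 4 values was not tested.

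**Figure D2:**
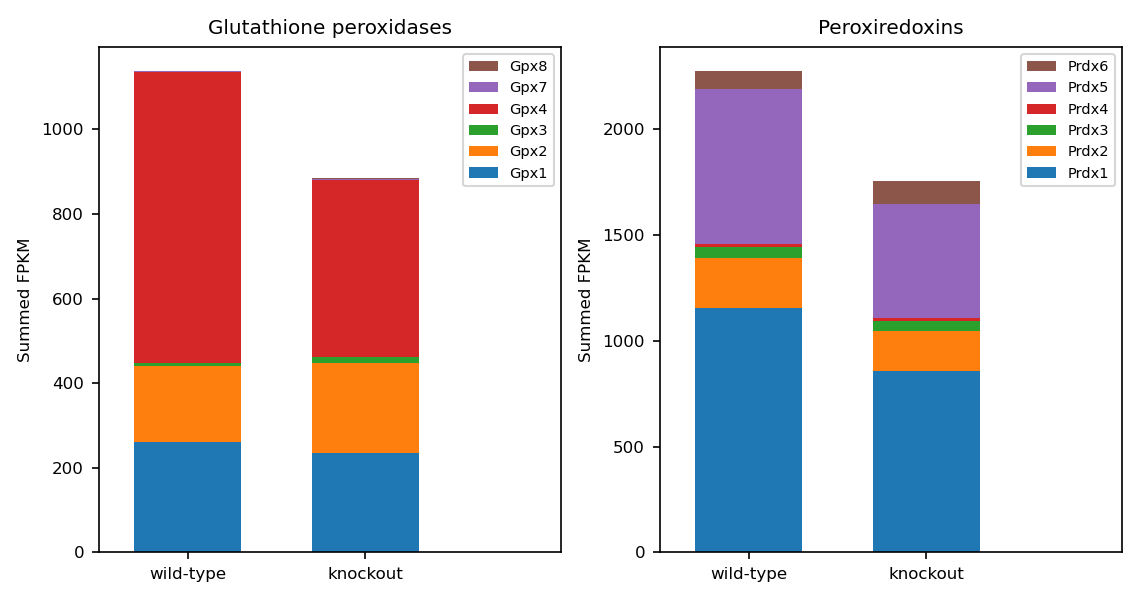
Summed FPKM of the glutathione peroxidases (left) and peroxiredoxins (right) in each library, stacked by gene. The glutathione peroxidase sum is 1138 in wild-type and 884 in knockout, with a smaller Gpx4 segment in the latter, and the peroxiredoxin sum is 2273 and 1753 with little shift in composition.

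The peroxiredoxins, thiol peroxidases of which most draw on thioredoxin, differed in direction, and the most abundant, Prdx1, Prdx5 and Prdx2, were lower. Prdx1 and Prdx5 made up 50.8% and 32.2% of the family sum in wild-type and 49% and 30.7% in the knockout library. Prdx1, cytosolic (chromosome 4, 116685544 to 116700822), measured 1156 and 858 FPKM, 1.35-fold lower (1.32 to 1.37). Prdx5, found in mitochondria and peroxisomes, was at 731 and 538 FPKM, 1.36-fold lower (1.31 to 1.4). Prdx2 was at 234 and 187 FPKM, and the mitochondrial Prdx3 at 51.1 and 45.7 FPKM. These 4 were below 0 under every scaling tried, and the other two members of the family stood above it. Prdx6, which uses glutathione and carries the miR-215 seed match shown above, was 1.24-fold higher (1.14 to 1.35), and Prdx4, of the endoplasmic reticulum, was at 14.8 and 16.7 FPKM with an interval of 0.885 to 1.43. Srxn1, the sulfiredoxin that repairs overoxidised peroxiredoxins, was at 180 and 178 FPKM, a fold of 0.986 (0.946 to 1.03).

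Over the 13 peroxidases (catalase, 6 glutathione peroxidases and 6 peroxiredoxins), 6 had ratios above 0 and 7 below, with a median of -0.16. With equal sums the median was -0.03, while that of all genes was 0.07. By place in the cell, all 5 mitochondrial genes (Sod2, Prdx3, Prdx5, Txn2 and Txnrd2) were below 0, between -0.44 and -0.11, except that Txn2 stood above 0 with equal sums or with the length trend removed. Their median was -0.21, close to the -0.22 of all 42 genes, and the fold interval of Txnrd2 included 1 (0.707 to 1.03). All 3 genes of the endoplasmic reticulum (Prdx4, Gpx7 and Gpx8) were above 0, between 0.16 and 0.48, at low FPKM. The fold interval of each included 1. Gpx7 and Gpx8 were kept through the knockout library only, so the filter fixed their direction.

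Thioredoxin and glutaredoxin, the small carriers of reducing power, were abundant and lower. Txn1 (chromosome 4, 57943373 to 57956411) was at 1310 FPKM in wild-type and 1053 in knockout, 1.24-fold lower (1.21 to 1.28). Glrx, which removes glutathione from protein thiols (chromosome 13, 75839868 to 75850154), measured 714 and 463 FPKM, 1.54-fold lower (1.49 to 1.59). The mitochondrial Txn2 was at 141 and 131 FPKM, a fold of 0.929 (0.866 to 0.997). Of the reductases that recharge thioredoxin, the cytosolic Txnrd1 was at 102 and 115 FPKM, 1.13-fold higher (1.07 to 1.18). The mitochondrial Txnrd2 was at 14.2 and 12.1 FPKM (interval 0.707 to 1.03), and Txnrd3, known from testis, was at 2.54 and 1.64 FPKM.

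The enzymes of glutathione differed in direction. Gclm, the modifier subunit of the enzyme that starts glutathione synthesis (chromosome 3, 122245557 to 122270732), measured 137 and 86.2 FPKM, 1.59-fold lower (1.53 to 1.65). Gclc, its catalytic subunit, was at 17 and 18.7 FPKM, with an interval of 0.975 to 1.24. Per length, Gclm was 8.05 times the level of Gclc in wild-type and 4.6 times in knockout. Gss, which completes glutathione, was at 70.7 and 52.9 FPKM, 1.34-fold lower (1.22 to 1.46), while Gsr, which regenerates it from its oxidised form, was at 40.8 and 52.6 FPKM, 1.29-fold higher (1.19 to 1.4).

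Nfe2l2 and Keap1, the factor and its inhibitor, were lower together. Nfe2l2 (chromosome 2, 75675513 to 75704641) was at 134 FPKM in wild-type and 94.8 in knockout, 1.41-fold lower (1.32 to 1.5). Keap1 was at 26.4 and 19.9 FPKM, 1.33-fold lower (1.19 to 1.48). Their ratio, per length, was 5.06 and 4.76. The mRNA level of Nfe2l2 is not a measure of NRF2 activity, which is set mainly by the stability of the protein.

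The genes counted as NRF2-controlled went both ways. Of 11, among them Prdx1 and Gpx2 that are also peroxidases, 4 were above 0 and 7 below (5 and 6 with equal sums), with a median of -0.12, and the sign of that median changed to 0.01 once the trend of the ratios with transcript length was removed. Above 0 were Gsr, Gpx2, Txnrd1 and Gclc, at 0.36, 0.27, 0.17 and 0.13. Blvrb, a biliverdin reductase (chromosome 7, 27447978 to 27466144), was the lowest at 48.6 and 27.2 FPKM, 1.78-fold lower (1.51 to 2.11). Nqo1, the quinone reductase often used as the readout of NRF2, was 1.53-fold lower (1.29 to 1.82). Hmox1, the inducible haem oxygenase, was near silent at 1.8 and 1.16 FPKM with an interval of 0.332 to 1.26, and the aldo-keto reductase gene Akr1b8 was at 4.12 and 3.7 FPKM.

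A core of the motif through which NRF2 acts, TGACNNNGC, was searched on both strands, and other forms of the motif were not searched. Its TGAC part can overlap an AP-1 site. The core is shown for the 4 of these genes that held it, of 8 with a promoter window, because their values differed. In Srxn1 it lay 28 bases after the start, and in Txnrd1 it was in 1 of 3 windows. It was found in 6 of 52 windows of the genes described here (11.5%), those of Sod1, Prdx1, Txnrd1, Srxn1, Gclm and Nfe2l2, against 12.4% of 32851 windows of all genes. Capitals mark the core, here read from the opposite strand.

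Gclm, chr3:122245407-122245447, plus strand: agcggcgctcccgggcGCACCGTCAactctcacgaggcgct

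Prdx1, chr4:116685450-116685490, plus strand: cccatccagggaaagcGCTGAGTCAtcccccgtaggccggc

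Srxn1, chr2:152105536-152105573, plus strand: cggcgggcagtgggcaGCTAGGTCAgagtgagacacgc

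Txnrd1, chr10:82859098-82859138, plus strand: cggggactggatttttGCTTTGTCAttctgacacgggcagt

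These 4 genes had log2 ratios of -0.66, -0.43, -0.02 and 0.17 in the order shown. The core was thus present in genes on both sides of 0, with Srxn1 changing sides under either other scaling. A match is a string of letters and not a bound site.

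Most genes of a wider list, the NRF2 system and its other reported targets, were lower. Of 26 kept genes, 20 were below 0, 12 at least 1.5-fold and 7 at least 2-fold, with a median of -0.53, and 0 were 1.5-fold higher. Of all genes kept, 56% were below 0, 7.26% at least 1.5-fold and 2.04% at least 2-fold, with a median of -0.05. A further 4.83% of all were at least 1.5-fold higher. The 7 genes of the list at least 2-fold lower were named after their values were seen. They were the glutathione transferase genes Gsta1, Gsta2, Gsta3 and Gstm1, the epoxide hydrolase gene Ephx1, the carboxylesterase gene Ces1g and the retinal dehydrogenase gene Aldh1a1. Ces1g was at 28.5 and 6.12 FPKM and Gsta3 at 13.8 and 3.27. The most abundant, the ferritin heavy chain gene Fth1, was at 4729 and 3357 FPKM. Several of the 7 are known also as targets of nuclear receptors for foreign compounds, and Gsta1 and Gsta2 are near-identical copies whose single values are uncertain.

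The regulators of NRF2 and its partners in this list differed in direction. The small Maf genes Mafg, Maff and Mafk had ratios of 0.21, 0.47 and 0.05, the repressor gene Bach1 0.10, and Cul3 and Rbx1, whose proteins work with KEAP1 to mark NRF2 for breakdown, -0.16 and -0.12, with Rbx1 just above 0 with equal sums. Sqstm1, whose protein binds KEAP1, was at 145 and 92.1 FPKM, a ratio of -0.65, and Nfe2l1, a relative of Nfe2l2, had a ratio of 0.00.

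**Figure D3:**
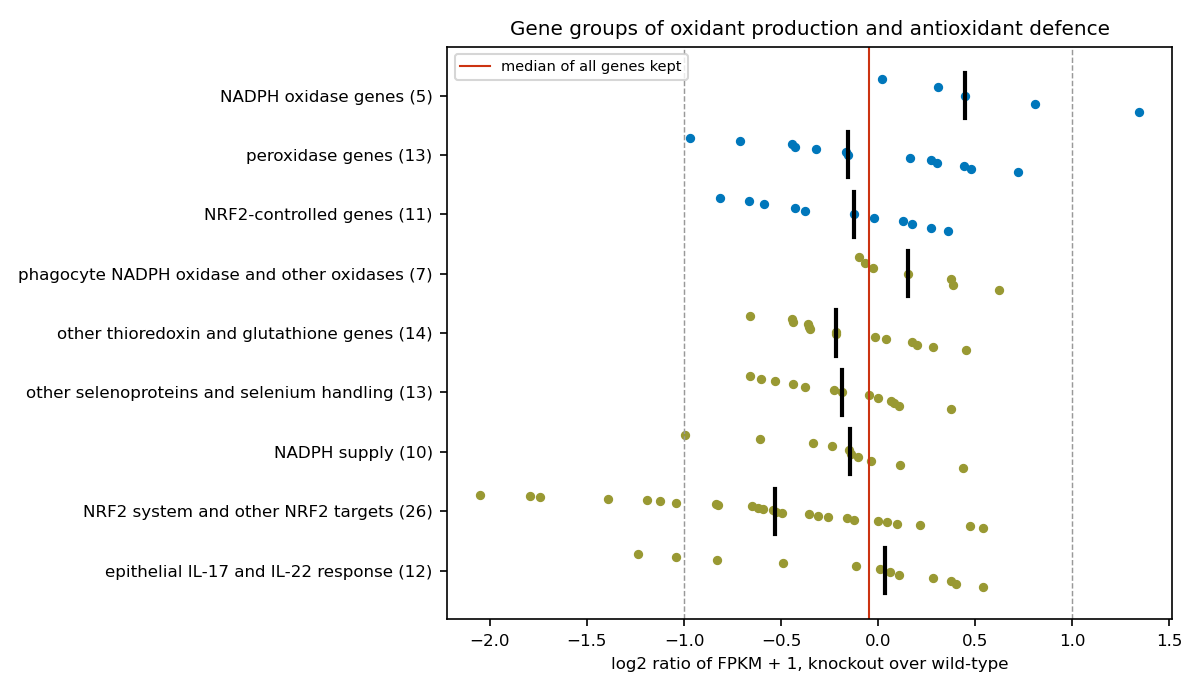
Log2 ratio of FPKM + 1, knockout over wild-type, for the kept genes of the 3 groups described here (blue) and of 6 other lists (olive), with the number of genes in brackets. Black bars are list medians, the red line is the median of all genes kept at -0.05, and dashed lines are 2-fold. The 5 kept genes of the dual oxidases, NOX1 and their partners all lie above 0. Of the 7 phagocyte and other oxidase genes 3 lie below it, and the other NRF2 targets reach -2.05.

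The remaining enzymes of quinones, haem and selenium were lower. Hmox2, the constitutive haem oxygenase, was at 39 and 26.6 FPKM, 1.46-fold lower (1.27 to 1.68), and Nqo2 was at 13.6 and 11.5 FPKM with an interval of 0.642 to 1.1. All 6 genes of quinones, haem and carbonyls were below 0, with a median of -0.46, except that Akr1b8 stood above it with the length trend removed. Red blood cells are rich in catalase, Prdx2 and Blvrb, and their markers were lower in the same library. Hba-a1 was at 28.6 and 5.33 FPKM, the summed FPKM of 6 listed red blood cell genes was 36.5 and 6.69, Hbb-b2 was at 7.07 and 1.23 FPKM, and the membrane protein gene Slc4a1 was at 0 in both. Their part in the values of Cat, Prdx2 and Blvrb was not tested.

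Sepp1, now named Selenop, had the highest level of the 46 genes. It encodes selenoprotein P, a secreted carrier of selenium (chromosome 15, 3268547 to 3280508), and ranked 6 among all genes in wild-type and 11 in knockout. It was at 8520 and 4620 FPKM, 1.84-fold lower (1.83 to 1.86). Without it the genes described here took 1.07% of all summed FPKM in wild-type and 0.907% in knockout, and with it 2.21% and 1.58%. Selenbp1, which binds selenium and oxidises methanethiol, was at 45.8 and 32.4 FPKM, 1.41-fold lower (1.26 to 1.59).

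The 8 selenoprotein genes among the 46 were split, 3 above 0 (Gpx2, Gpx3 and Txnrd1) and 5 below, with a median of -0.19. Of all genes kept, 56% were below 0 (40.7% with equal sums) and 7.26% were 1.5-fold lower. Of 13 other kept genes of selenoproteins and selenium handling, 9 were below 0 (7 with equal sums) and 2 were 1.5-fold lower, with a median of -0.19 as well. Those 2 were Dio1, a deiodinase of thyroid hormones, at 113 and 70.8 FPKM, and Sephs2, which makes the selenium donor for selenocysteine, at 175 and 115 FPKM. The most abundant of them, Sepw1, was at 183 and 141 FPKM.

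NADPH, on which glutathione and thioredoxin reductases run, comes from the pentose phosphate pathway and from malic and isocitrate enzymes. Of 10 kept genes for its supply, 8 were below 0 (6 with equal sums) and 2 at least 1.5-fold lower, with a median of -0.14. These 2 were the malic enzyme gene Me1, at 20.3 and 9.69 FPKM, and the isocitrate dehydrogenase gene Idh1, at 226 and 148 FPKM. The most abundant, the pentose phosphate gene Taldo1, was at 580 and 523 FPKM. Of 14 other kept thioredoxin and glutathione genes, 9 were below 0 (8 with equal sums). Among these 14, 1, the methionine sulfoxide reductase gene Msra, was 1.5-fold lower, at 140 and 87.9 FPKM. Beside both lists, 56% of all genes kept were below 0 (40.7% with equal sums) and 7.26% were 1.5-fold lower. Ggt1, which breaks down extracellular glutathione and was the most abundant of the 14, was at 497 and 366 FPKM. Chac1, at 0.527 and 1.09 FPKM, was low in both libraries.

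The ratios differed with level and transcript length, and markers of crypt and of villus were read beside them. Among kept genes with a matched transcript and a mean of 100 FPKM or more, 77.4% were below 0 and the median was -0.18, and 16 of the 42 genes were in that class, 14 of them below 0 with a median of -0.44. Among genes with a mean from 10 to 99 FPKM the medians were -0.09 for all and -0.13 for the 20 described here. Genes with transcripts under 1000 nt had a median of -0.16 and those of 2000 nt or more -0.01. Of 9 villus enterocyte markers 8 were below 0 (6 with equal sums), with a median of -0.14 (-0.00 with equal sums). Of 11 crypt and proliferation markers 10 were above 0, with a median of 0.44 (0.57 with equal sums). The villus genes Alpi, Ada and Apoa1 had ratios of -0.51, 0.33 and -0.14. The crypt and proliferation genes Mcm3, Mcm4 and Olfm4 had ratios of 0.94, 0.71 and 0.44, while Lgr5 of the same list was at -0.54. Position along the crypt and villus was not measured, and its part and that of level in the ratios of the defence genes were not tested. With the trend with length removed, 4 genes, Cat, Gclm, Blvrb and Sepp1, were 1.5-fold lower (5.61% of all). In that setting 5, Duox2, Duoxa2, Gpx3, Gpx7 and Gpx8, were 1.5-fold higher (5.97% of all). Gpx7 and Gpx8 were kept through the knockout library only, and their fold intervals included 1.

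**Figure D4:**
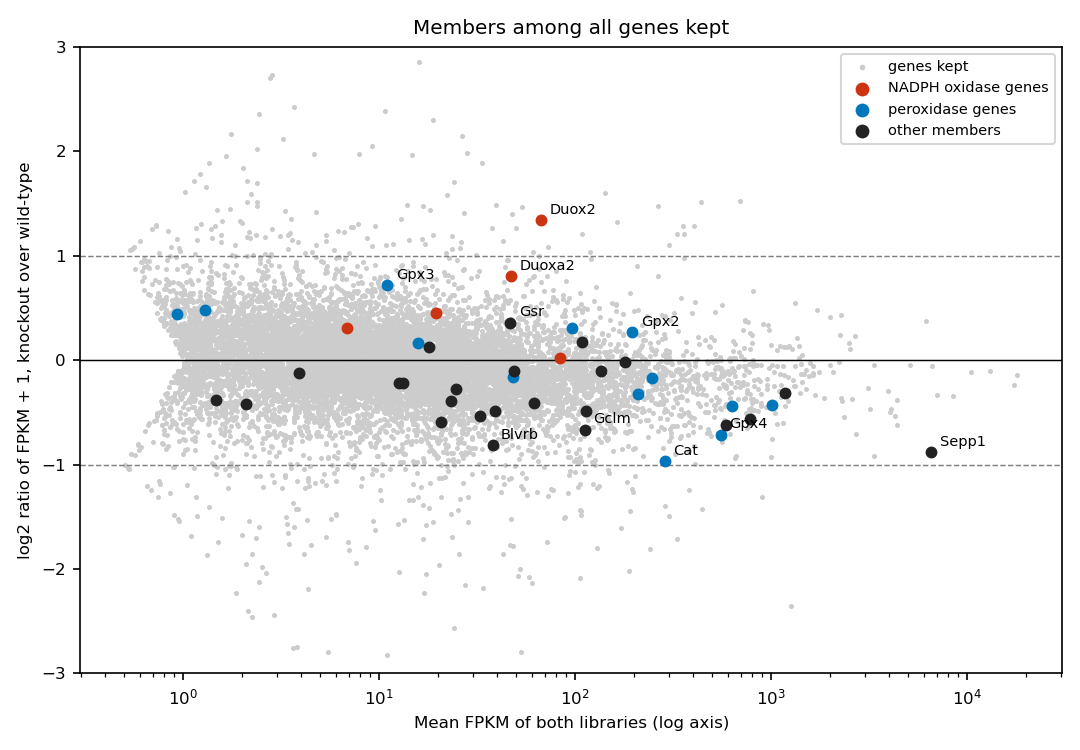
Log2 ratio of FPKM + 1, knockout over wild-type, against the mean FPKM of both libraries (log axis) for all 11504 genes kept (grey) with the 42 genes described here in colour; 40 genes beyond 3 on the vertical axis are not drawn. Duox2 is above the dashed 2-fold line, Cat lies just inside the lower one at -0.97, and most of the abundant genes on the right lie below 0.

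Of 9 epithelial markers 4 were above 0 and 5 below (6 and 3 with equal sums), and the 9 summed to 9647 and 10324 FPKM. Krt8, the most abundant, was at 2456 and 2893 FPKM, Krt20 at 1721 and 2287, and Cdx2, an intestinal transcription factor gene, at 124 and 64.8. All 5 markers of the proximal intestine were below 0 (4 with equal sums, median -0.19 as deposited), with Gata4 at -0.55 and Fabp1 at -0.33. Medians of the distal, tuft and goblet cell markers were -0.02, 0.23 and 0.04, with Fgf15, Fabp6, Alox5ap, Ptgs1, Clca1, Agr2 and Tff3 at 0.58, -0.29, -0.56, 0.54, 0.62, 0.53 and -0.47. The distal median was above 0 under either other scaling. Of 12 kept immediate early and dissociation stress genes 8 were above 0 and 4 below (9 and 3 with equal sums), with a median of 0.39. Fosb was at 1.52 and 4.04 FPKM, Dusp1 at 5.74 and 11.4, and Zfp36 at 152 and 184. Ier3, the lowest of the 4 below 0, was at 5.23 and 3.02 FPKM. Glucocorticoid targets, 7 of 9 above 0, had a median of 1.03, with Fkbp5, Mt2 and Sgk1 at 2.86, -2.09 and 1.21. Their part in the values of the genes described here was not tested. The counting intervals show only that a difference between these 2 libraries exceeds the sampling of fragments. The genes Gpx4, Gpx2, Prdx2, Prdx6, Txn1, Fth1 and Ftl1 have related or processed copies in the annotation, and the sources used here do not say how fragments were divided among such copies.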

How the data were processed

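Total RNA of small intestinal epithelial cells was sequenced for 1 wild-type and 1 miR-215 knockout library, with the TruSeq stranded mRNA kit per the labels' protocols. The deposited values are FPKM, which the authors made; mm10, Cuffnorm 2.2.1, SAMtools 0.1.19, Bowtie2 2.2.3 and TopHat2 2.0.13 appear in the submitters' processing notes. Settings, annotation and scaling were not given in the sources used here, and the unit was inferred from Cuffnorm and the values.

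Summed FPKM were 750631 (wild-type) and 683884 (knockout). A gene was kept when 1 library or both had 1 FPKM or more, and log2(FPKM + 1) ratios were computed (pandas 2.3.3, numpy 2.4.6); 2-fold and 1.5-fold are rules of size. The files hold no counts. The ratio 0.963, shared by 246 of 602 genes under 0.1 FPKM in both libraries, gave the relative worth of 1 fragment. Steps among 376 and 387 genes with 1 transcript gave 0.113 and 0.109 FPKM for 1 fragment over 1 kb, so a 2 kb gene at 1 FPKM rested on about 17.7 and 18.4 fragments. Fragments used the median transcript length (GENCODE M21, on GRCm38, which is mm10), and 95% intervals used scipy 1.17.1. Both were tested on data simulated under the same relation of fragments, length and FPKM. Such data cannot test whether that relation holds for short transcripts.

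Promoter windows and microRNAs came from RefSeq on GRCm38.p6; 40 genes matched a window, the others being Nos2, Sod3, Prdx6, Gclc, Gsr and Hmox1. All 46 genes matched a transcript, Sepp1 through its newer symbol. The genes and lists were chosen with earlier results of these data known, and 1 marker gene is not reported here. All 46 genes were named; of each other list the most abundant gene and the 2 of largest log2 ratio in size, with some others where they stood beside a result. Other pseudocounts, filters, scalings and transcript lengths were tried, and the removal of the length trend (lowess, span 0.3, statsmodels 0.14.6) was added after seeing the data.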

Additional observations from a re-analysis of the deposited data

How the results depend on the processing

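Duox2 as the 1 gene at least 2-fold higher and 0 genes at least 2-fold lower held under the 6 alternatives (pseudocounts of 0.1 and 5, no filter, a minimum of 5 FPKM, equal sums, equal upper quartiles) and with the length trend removed. The count of genes 1.5-fold higher, 3, was 5 with a pseudocount of 0.1 (8.07% of all) and 5 with the length trend removed (5.97% of all). It was 2 with a pseudocount of 5 (1.56% of all), without Gpx3, and 4 without a filter (2.68% of all), with Sod3. The count 1.5-fold lower, 7, was 3 with equal sums, 4 with equal upper quartiles and 4 with the length trend removed. The shares of all genes were then 4.9%, 5.35% and 5.61%. The count 1.5-fold lower was 9 and 6 with pseudocounts of 0.1 and 5 (9.62% and 4.05% of all). The median of the oxidase genes, 0.45, was 0.24 without a filter, which adds 3 nearly silent genes. The median of the peroxidases, -0.16, was -0.03 with equal sums, -0.06 with equal upper quartiles and -0.02 with the length trend removed, and that of the NRF2-controlled genes was 0.01 with that trend removed. Among the other lists, a minimum of 5 FPKM turned the phagocyte and other oxidases to -0.05 with 4 genes left, and the IL-17 and IL-22 response to -0.05 with 10 left. Without a filter the other thioredoxin and glutathione genes were at -0.02; equal sums put NADPH supply at -0.01 and the other NRF2 targets at -0.40. Filters change the genes in a list; for the other shifts the cause was not tested. Of single genes, Nos2, Txn2 and Srxn1 changed sign with equal sums, Srxn1 also with equal upper quartiles, and Txn2, Srxn1 and Akr1b8 with the length trend removed. With the shortest transcript, the interval of 1 gene, Txnrd3, included 1. No replicate could be left out and no paired analysis was possible because there is 1 library per genotype. Depth limits Duox1, Duoxa1, Nox1, Sod3, Gpx7, Gpx8 and Hmox1, which rested on 30 fragments or fewer in each library.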
